A study of Mus musculus with 9 samples.

Results

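EPZ5676 explants were compared with fresh embryonic lung across all genes of a mouse RNA-seq series. These groups hold 6 of its 9 libraries. The 3 fresh libraries (E11.5 1 to 3) came from wild-type lung at E11.5, a day of gestation at which the first branches form. The 3 treated libraries (EPZ5676 1 to 3) came from explants of such lungs, kept for 72 h in vitro with EPZ5676, an inhibitor of the histone methyltransferase DOT1L. The dose and vehicle are not given in the sources used here, and neither are the strain and whether replicates came from separate embryos or cultures, so p-values measure only the spread between these libraries. The other 3 libraries are control explants, also cultured for 72 h. Their values are set side by side here, and they also enter the gene filter, the scaling and the estimate of spread behind the p-values. Culture, the time that passed and the inhibitor all differ between treated explants and fresh lung, so their shares in a change cannot be told apart from this comparison, and a change below is the combined one. In whole tissue, fewer cells of a type and less RNA per cell cannot be told apart either.

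DOT1L places methyl groups on a lysine in the globular part of histone H3 along transcribed genes, and EPZ5676 occupies its cofactor pocket. The lung at this stage is an epithelial tree of foregut origin inside a mesenchyme with a vessel plexus, and FGF10 from the mesenchyme drives its tips outward. Explants on culture membranes keep branching for days without blood flow, and in the embryo airway cell types start to differentiate in the days after this stage.

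Depth was alike in the libraries compared, from 6598387 to 8235720 expected counts, and the first principal component of the 9 libraries, with 60.2% of the variance, separated fresh from cultured tissue. E11.5 1 lay nearest to the cultured libraries on it, at -65.7 against -85.1 and -82.8 for the other fresh libraries, and the EPZ5676 libraries lay between 40.4 and 49.3. The share of TPM (a level that allows for transcript length and library size) on mitochondrial messages was 8.18% to 10.24% in fresh lung and 11.01% to 11.54% in EPZ5676 explants. Xist, the X-inactivation RNA, and the Y-linked Ddx3y were both well above 0 in E11.5 2 (144 and 20.02 TPM) and E11.5 3 (72.5 and 30.2 TPM). In E11.5 1 the values were 284 TPM for Xist and 0 for Ddx3y. EPZ5676 2 held 209.7 TPM of Xist and 0.44 TPM of Ddx3y, whereas EPZ5676 1 and 3 held 55.7 and 49.9 TPM of Ddx3y and 0.58 and 0.77 TPM of Xist, so the groups differ in their mix of these transcripts, whose part in the results was not tested. Nkx2-1 and Tbx5, defining markers of lung epithelium and mesenchyme, were detected in every library of both groups, with values given below.

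Of 15158 genes tested, 6062 (40%) passed an adjusted p of 0.05: 3350 (22.1%) were higher in EPZ5676 explants and 2712 (17.9%) were lower. These shares are the background for every count of listed genes below. The large changes leaned upward. Past 2-fold there were 1821 rises (12%) and 694 falls (4.58%), past 4-fold 811 (5.35%) and 232 (1.53%), and past 8-fold 360 (2.37%) and 90 (0.594%), while the median log2 fold change of all genes was 0.02. A group of 54 genes lay under 1 TPM in all fresh libraries and above 5 TPM in all EPZ5676 libraries, and 24 genes showed the reverse. TPM of the groups did not overlap for 7913 genes (52.2%). The control explants, which share the fresh libraries as their reference, gave 5711 genes (37.7%), 3202 higher and 2509 lower.

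**Figure D1:**
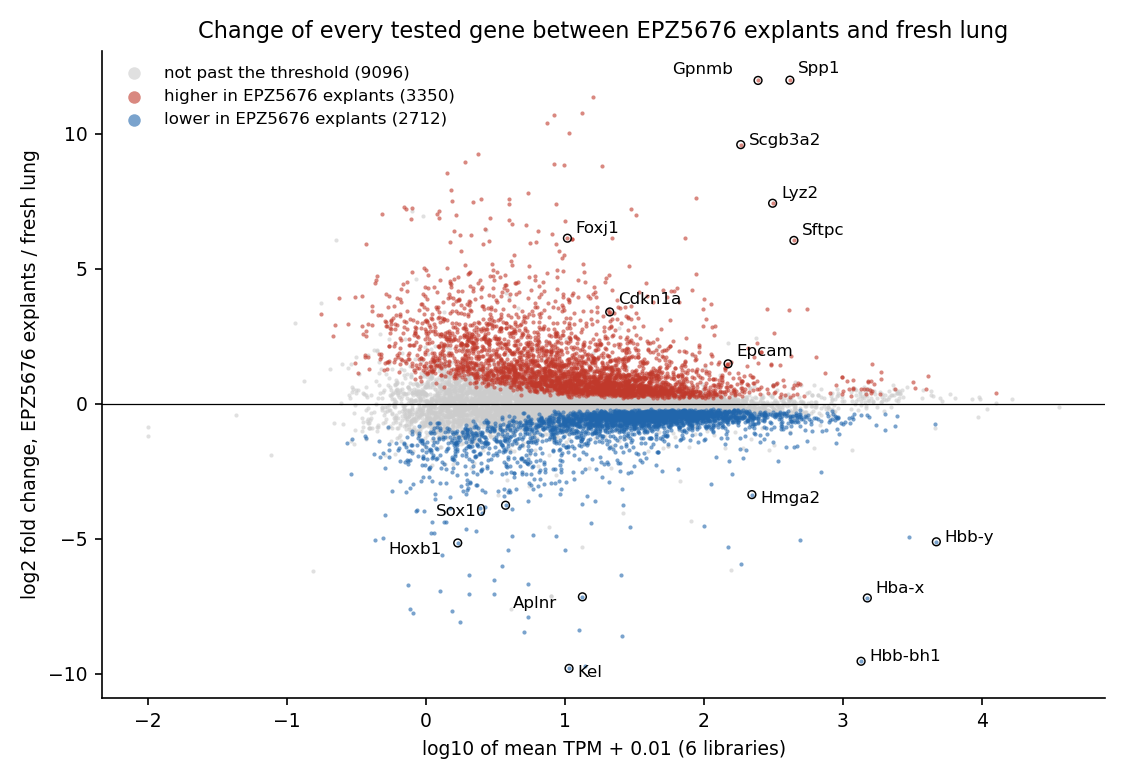
Each point is 1 of the 15158 tested genes; the x axis is the log10 of mean TPM + 0.01 over the 6 libraries and the y axis the log2 fold change of EPZ5676 explants over fresh lung. Red points (3350) were higher and blue points (2712) lower at an adjusted p of 0.05; the embryonic globins Hbb-y, Hba-x and Hbb-bh1 lie at the lower right and Spp1 and Gpnmb at the top.

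The genes with the largest rises belong to phagocytes, stroma and secretory airway. Spp1, which encodes the secreted phosphoprotein osteopontin, was at 0.18, 0.19 and 0.19 TPM in fresh lung and 677, 791 and 1036 TPM in EPZ5676 explants. Gpnmb, a transmembrane glycoprotein of lysosome-rich phagocytes, was at 0.13, 0.21 and 0.1 TPM in fresh lung and 530.1, 360.3 and 587 TPM in EPZ5676 explants. Both genes went from under 1 TPM in every fresh library to among the abundant messages of every treated one (for Spp1 log2 fold change 11.99 ± 0.51, edgeR adjusted p = 1.26e-06, and for Gpnmb log2 fold change 11.98 ± 0.30, edgeR adjusted p = 7.91e-09). Scgb3a2, a secretoglobin of airway secretory cells, was at 1.19, 0 and 0 TPM in fresh lung and 356, 172 and 579 TPM in EPZ5676 explants (log2 fold change 9.60 ± 0.98, edgeR adjusted p = 0.000201). Only E11.5 1 among the fresh libraries had counts for it. For 7 of the 10 leading genes all fresh libraries were at 0, and their folds are lower bounds against a floor of 3 counts over the group, covering counting error only; fitted fold changes of such genes depend on a prior count. The small matrix proteoglycan Aspn was at least 297-fold higher, with 27.6, 37.1 and 31.4 TPM in EPZ5676 explants. The bounds were 186-fold for the angiotensin receptor Agtr2, 153-fold for Atp6v0d2, a proton pump subunit, 53.6-fold for the carbonyl reductase Cbr2, 51.8-fold for Lypd2 and 51.2-fold for S100a14. Cyp2f2, the club cell cytochrome, was at least 191-fold higher over the group, but its libraries spread widely at 13.2, 29.3 and 37.1 TPM in EPZ5676 explants. Its adjusted p of 0.0277 (edgeR) rose to 0.0574 without E11.5 2, 0.0556 without E11.5 3, 0.067 without EPZ5676 2 and 0.0618 without EPZ5676 3. Spp1 lies at chr5:104435118-104441050, Gpnmb at chr6:49036546-49070929 and Aspn at chr13:49544443-49567565 (GRCm38, gene bounds from GENCODE).

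Of the 10 largest falls, 9 were red cell genes, and the tenth was endothelial. The embryonic beta-like globin Hbb-bh1 was at 1223, 3698 and 3219.5 TPM in fresh lung and 7.33, 0.96 and 2.42 TPM in EPZ5676 explants. The anion exchanger of the red cell membrane, Slc4a1, was at 41.8, 63.2 and 50.4 TPM in fresh lung and 0.09, 0.05 and 0.24 TPM in EPZ5676 explants. The Kell antigen protease Kel was at 18.01, 19.8 and 26.6 TPM in fresh lung and at 0 in all EPZ5676 libraries, at least 115-fold lower. Every treated library lay far below every fresh one for these genes (for Hbb-bh1 log2 fold change -9.54 ± 0.87, edgeR adjusted p = 0.000224, and for Slc4a1 log2 fold change -8.62 ± 1.24, edgeR adjusted p = 0.00189). Hemgn, Epb42, Rhag, Ermap and Hba-x, all red cell genes too, had log2 fold changes from -8.40 to -6.69. Aplnr, the apelin receptor of sprouting and venous endothelium, was at 31.1, 25.8 and 22.9 TPM in fresh lung and 0.21, 0.12 and 0.18 TPM in EPZ5676 explants (log2 fold change -7.16 ± 0.46, edgeR adjusted p = 5.00e-06). Kel lies at chr6:41686330-41704339 and Hbb-bh1 at chr7:103841637-103843164 (GRCm38).

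Epithelial genes rose as a body. All 28 tested genes of simple epithelium and junctions were higher, with a median log2 fold change of 1.78, against 0.02 over all genes and a background of 22.1% higher. Epcam, the pan-epithelial adhesion molecule, was at 83.1, 80.5 and 75.9 TPM in fresh lung and 226, 189 and 244 TPM in EPZ5676 explants (log2 fold change 1.48 ± 0.12, edgeR adjusted p = 1.65e-05). Each treated library was above each fresh one. The keratin Krt19 was at 11.3, 6.51 and 9.47 TPM in fresh lung and 94.8, 113 and 162 TPM in EPZ5676 explants (log2 fold change 3.75 ± 0.27, edgeR adjusted p = 1.09e-05), and the tight junction claudin Cldn3 at 7.34, 5.78 and 5.28 TPM in fresh lung and 62.3, 47.8 and 50.9 TPM in EPZ5676 explants (log2 fold change 3.12 ± 0.18, edgeR adjusted p = 1.84e-06).

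Among lung endoderm transcription factors, 11 of 17 rose and 2 fell (median 1.34). Nkx2-1, the factor that specifies lung endoderm, was at 37.6, 38.7 and 30.1 TPM in fresh lung and 96.6, 84.8 and 83.97 TPM in EPZ5676 explants (log2 fold change 1.34 ± 0.11, edgeR adjusted p = 1.23e-05). The ETS factors of epithelial differentiation rose by more: Elf5 was at 2.24, 0.94 and 0.99 TPM in fresh lung and 39.1, 32.3 and 49.9 TPM in EPZ5676 explants (log2 fold change 4.75 ± 0.39, edgeR adjusted p = 2.32e-05), and Ehf at 0.13, 0 and 0 TPM in fresh lung and 10.7, 8.67 and 13.2 TPM in EPZ5676 explants (log2 fold change 7.83 ± 0.76, edgeR adjusted p = 5.58e-05). Cebpa, a factor of alveolar and other epithelial maturation, also rose (log2 fold change 3.35 ± 0.33). The airway factor Sox2 was at 10.4, 6.7 and 7.23 TPM in fresh lung and 32.6, 13 and 29.3 TPM in EPZ5676 explants and did not pass (log2 fold change 1.62 ± 0.67, edgeR adjusted p = 0.0909), though it passed when fitted to the 6 libraries alone (adjusted p = 0.00711).

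Genes of the distal tip, the progenitor zone at the ends of the branches, were mixed: 6 of 15 rose and 2 fell, with a median of 0.24. The called share was 53.3%, beside 40% of all tested genes. Sox9, the tip factor, was at 22.1, 24.1 and 17.7 TPM in fresh lung and 27.7, 26.9 and 19.8 TPM in EPZ5676 explants (log2 fold change 0.24 ± 0.26, edgeR adjusted p = 0.49). Etv5, an FGF-responsive tip factor, was at 67.9, 83.1 and 70.3 TPM in fresh lung and 68.2, 73.9 and 55.96 TPM in EPZ5676 explants (log2 fold change -0.02 ± 0.23, edgeR adjusted p = 0.956). Neither passed, and the groups overlapped for Sox9 and for Etv5. Id2, a tip marker and BMP target, rose (log2 fold change 0.77 ± 0.19). The 2 that fell were Sox11, a factor of immature tissue (log2 fold change -1.86 ± 0.13), and Lin28b, described with its family below.

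Alveolar type 2 genes, for the cells that make surfactant, rose in 12 of 13 tested (median 3.60), beside 22.1% higher of all tested genes. A further 3 listed members were too low to test. Sftpc, the surfactant protein C gene, was at 16.8, 8.93 and 14.3 TPM in fresh lung and 501, 1445 and 691 TPM in EPZ5676 explants (log2 fold change 6.05 ± 1.11, edgeR adjusted p = 0.00606). The lowest treated library was far above the highest fresh one, yet the treated ones still spread widely. Slc34a2, the phosphate carrier of these cells, was at 0, 0.06 and 0 TPM in fresh lung and 4.17, 9.73 and 0.95 TPM in EPZ5676 explants (log2 fold change 7.60 ± 1.22, edgeR adjusted p = 0.0012). The filter kept Slc34a2 only because explants held more of it. Such a member could be called only higher, so the count and median of this list were partly fixed in advance. Lamp3, of the lamellar body membrane, rose (log2 fold change 5.97 ± 0.47), and so did Lyz2 (log2 fold change 7.43 ± 0.26), a lysozyme that macrophages make as well. Alveolar type 1 genes rose in 10 of 14 tested (median 1.75). Hopx was at 2.18, 2.47 and 2.19 TPM in fresh lung and 20, 26.8 and 26.9 TPM in EPZ5676 explants (log2 fold change 3.44 ± 0.48, edgeR adjusted p = 0.000363). Emp2, a membrane protein of flat alveolar cells, rose from a mean of 5.76 ± 2.48 to 58.97 ± 7.59 TPM (SD, n = 3) (log2 fold change 3.37 ± 0.23).

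All 6 testable airway secretory genes rose, of 16 listed, the others being too low in every group. Their median was 6.42, or 4.84 with genes at 0 in fresh lung set to their bounds. The filter kept members near 0 in fresh lung, such as Cyp2f2 and Cbr2, only because explants held more of them. Such members could be called only higher, so the count and median of this list were partly fixed in advance. The aldehyde dehydrogenase Aldh1a1 was at 15.7, 1.61 and 2.67 TPM in fresh lung and 121, 51.1 and 132 TPM in EPZ5676 explants (log2 fold change 3.94 ± 0.81, edgeR adjusted p = 0.00857). Multiciliated cell genes rose in 15 of 19 tested, of 23 listed, with a median of 3.01. The rises numbered 8 when at least 50 counts were asked of 3 libraries, which left fewer to test. The limit set by the filter holds here too, for Foxj1, Mcidas and Gmnc were near 0 in fresh lung. Foxj1, the master factor of motile cilia, was at 0.09, 0.57 and 0.19 TPM in fresh lung and 20.8, 6.72 and 34.3 TPM in EPZ5676 explants (log2 fold change 6.13 ± 0.85, edgeR adjusted p = 0.000613). Its lowest treated library, EPZ5676 2, was still well above the highest fresh one. Mcidas, which starts the multiciliation programme, was at 0.1, 0 and 0.1 TPM in fresh lung and 6.3, 4.12 and 14.4 TPM in EPZ5676 explants (log2 fold change 6.68 ± 1.04, edgeR adjusted p = 0.000861). Gmnc, its upstream partner, was at 0.22, 0 and 0 TPM in fresh lung and 7.06, 4.22 and 5.68 TPM in EPZ5676 explants (log2 fold change 6.87 ± 0.64, edgeR adjusted p = 2.86e-05). The axonemal gene Spag6l also rose (log2 fold change 6.24 ± 1.17). Basal cell genes rose in 3 of 7 and fell in none, a called share of 42.9% beside 40% of all tested genes. Among the rises were the keratin Krt15 (log2 fold change 3.60 ± 0.45) and the basal factor Trp63 (log2 fold change 2.83 ± 0.68), which reached a mean of only 1.84 TPM.

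**Figure D2:**
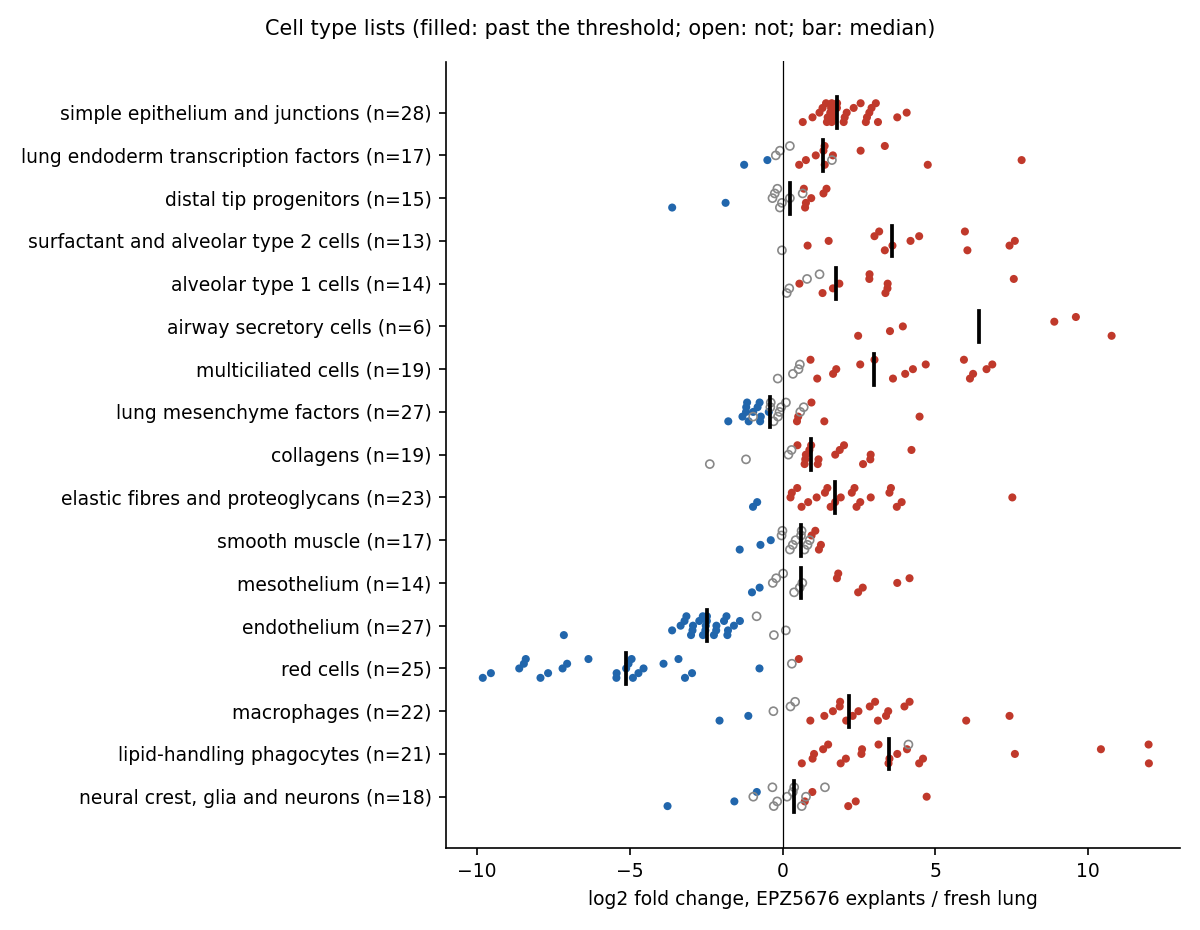
Each point is a tested gene of a cell type list, placed by its log2 fold change of EPZ5676 explants over fresh lung on the x axis; filled points passed the threshold and black bars are list medians. Epithelial, phagocyte and matrix lists lie to the right of 0, and red cells (median -5.12) and endothelium (median -2.48) to the left.

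Mesenchymal identity factors moved the other way more often: 12 of 27 fell and 5 rose (median -0.40), 63% in all beside 40% of all tested genes. Tbx5, a T-box factor of lung mesenchyme, was at 80.8, 111 and 94.3 TPM in fresh lung and 47.5, 41.6 and 36.1 TPM in EPZ5676 explants (log2 fold change -1.31 ± 0.12, edgeR adjusted p = 2.41e-05). Osr1, an early foregut mesoderm factor, was at 74.7, 79.6 and 65.5 TPM in fresh lung and 24.2, 24.2 and 14.7 TPM in EPZ5676 explants (log2 fold change -1.77 ± 0.18, edgeR adjusted p = 4.60e-05). Foxf1, the Hedgehog-responsive factor of the mesenchyme, was at 75.8, 111 and 103 TPM in fresh lung and 58.3, 33.3 and 38.02 TPM in EPZ5676 explants (log2 fold change -1.16 ± 0.19, edgeR adjusted p = 0.000965). The groups were separate for all of these. The count of 5 rises fell to 2 without E11.5 2, E11.5 3 or EPZ5676 2 and to 3 without EPZ5676 1. Osr2 (log2 fold change 4.49 ± 0.83) and Meox2 (log2 fold change 1.37 ± 0.19) rose.

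Matrix genes rose instead. Of 23 tested genes of elastic fibres and proteoglycans, 21 rose and 2 fell (median 1.72), and of 19 collagens 15 rose (median 0.94). Eln, the elastin gene, was at 23.01, 6.27 and 8.94 TPM in fresh lung and 217, 158 and 187 TPM in EPZ5676 explants (log2 fold change 3.90 ± 0.45, edgeR adjusted p = 0.000407). The microfibril gene Mfap4 was at 127, 101 and 96.8 TPM in fresh lung and 430.1, 384 and 414 TPM in EPZ5676 explants (log2 fold change 1.91 ± 0.16, edgeR adjusted p = 1.96e-05). Collagen VI genes had the 3 largest rises of the collagen list: Col6a3 was at 9.66, 3.23 and 4.74 TPM in fresh lung and 103, 100.3 and 87.2 TPM in EPZ5676 explants (log2 fold change 4.22 ± 0.53, edgeR adjusted p = 0.000725), with Col6a1 (log2 fold change 2.87 ± 0.24) and Col6a2 (log2 fold change 2.88 ± 0.24) close to each other. The interstitial collagen Col3a1 rose from a mean of 501 ± 82.7 to 998 ± 50.5 TPM (SD, n = 3) (log2 fold change 1.15 ± 0.15). Of 17 smooth muscle genes 4 were higher and 3 lower, 41.2% in all and near the 40% of all tested genes, so the count sets the list apart in neither direction. The myosin kinase Mylk (log2 fold change 1.26 ± 0.14) and the actin-binding Tagln (log2 fold change 1.19 ± 0.13) rose, while Cald1, the caldesmon gene, fell (log2 fold change -1.40 ± 0.13). Of 14 mesothelium genes, which mark the outer lining, 6 rose and 2 fell, 57.1% in all beside 40% of all tested genes. The falls were Wt1 and Aldh1a2, and Upk3b did not pass. These genes are named after their values were seen. Of the rises, Krt18 and Krt19 are also in the simple epithelium list and Muc16 in the secretory list, so the list has no single direction. Msln, mesothelin, was at 0.37, 1.79 and 1.09 TPM in fresh lung and 3.84, 8.57 and 12.2 TPM in EPZ5676 explants (log2 fold change 4.16 ± 0.87, edgeR adjusted p = 0.00375).

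Signal genes did not move as a body, and the ligand genes Fgf10, Shh and Bmp4 did not pass. FGF genes had the most rises for their number, with 10 of 19 higher and none lower (median 0.70). Fgf10, the mesenchymal ligand of the tips, was at 9.89, 12.7 and 10.5 TPM in fresh lung and 15.1, 24.8 and 12.7 TPM in EPZ5676 explants and did not pass (log2 fold change 0.69 ± 0.30, edgeR adjusted p = 0.0915). Its epithelial receptor gene Fgfr2 was at 102, 97.5 and 99.4 TPM in fresh lung and 163, 132 and 122 TPM in EPZ5676 explants (log2 fold change 0.70 ± 0.10, edgeR adjusted p = 0.000386). Fgf1 had the largest rise of the list, at 2.11, 0.41 and 0.36 TPM in fresh lung and 24.1, 24.6 and 29.4 TPM in EPZ5676 explants (log2 fold change 5.19 ± 0.49, edgeR adjusted p = 6.67e-05). Fgf7, a mesenchymal ligand of the same receptor (log2 fold change 2.91 ± 0.52), Fgf2 (log2 fold change 2.86 ± 0.32) and the receptor gene Fgfr3 (log2 fold change 2.24 ± 0.19) rose too.

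Of the Hedgehog genes 1 of 14 rose and 3 fell. Shh, the epithelial ligand, was at 12.98, 18.6 and 17.7 TPM in fresh lung and 29.8, 16.3 and 26.3 TPM in EPZ5676 explants and did not pass (log2 fold change 0.56 ± 0.21, edgeR adjusted p = 0.0522), although without EPZ5676 2 it did (edgeR adjusted p = 0.00912). Bmp4, the ligand that restrains tip growth, was at 37.6, 47 and 32.2 TPM in fresh lung and 59.1, 114 and 58.9 TPM in EPZ5676 explants and did not pass (log2 fold change 0.66 ± 0.30, edgeR adjusted p = 0.108). Of 23 BMP and TGF beta genes 8 rose and 1 fell. The BMP target Id1 (log2 fold change 1.75 ± 0.33) and the ligand Tgfb3 (log2 fold change 1.72 ± 0.21) rose. Among 28 WNT genes 9 rose and 4 fell. The secreted inhibitor Wif1 was at 1.02, 0.66 and 0.36 TPM in fresh lung and 23.7, 13.8 and 13.5 TPM in EPZ5676 explants (log2 fold change 4.71 ± 0.67, edgeR adjusted p = 0.000611). The nuclear effector and target Lef1 was at 24.2, 34.2 and 31.4 TPM in fresh lung and 8.75, 6.84 and 4.86 TPM in EPZ5676 explants (log2 fold change -2.14 ± 0.19, edgeR adjusted p = 2.28e-05). Sfrp1, another secreted antagonist, fell (log2 fold change -1.62 ± 0.23), so the antagonists did not share a direction. The Notch list held 5 rises and 3 falls among 19, with Hes1 (log2 fold change 0.97 ± 0.23) and Jag2 (log2 fold change 1.30 ± 0.22) higher and Hey2, an arterial target, lower (log2 fold change -2.43 ± 0.51). The shares called in either direction were 28.6% of Hedgehog, 39.1% of BMP and TGF beta, 46.4% of WNT and 42.1% of Notch genes, beside 40% of all tested genes, so those of the BMP and TGF beta, WNT and Notch lists were near the background.

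In the retinoic acid list 4 of 14 rose and 5 fell, 64.3% in all beside 40% of all tested genes. The falls included genes for uptake, carriage, synthesis and breakdown. The rises were the carrier genes Crabp1 and Rbp4, the synthetic enzyme Aldh1a1, given above with secretory genes, and the receptor gene Rarg. Carriage and synthesis thus went both ways. Crabp1 and Rarg are named after their values were seen. Stra6, the retinol uptake receptor, was at 20.9, 20.8 and 16.8 TPM in fresh lung and 4.66, 3.26 and 3.4 TPM in EPZ5676 explants (log2 fold change -2.79 ± 0.17, edgeR adjusted p = 2.92e-06). Crabp2, a carrier of retinoic acid, was at 75.2, 95.1 and 85.3 TPM in fresh lung and 11.2, 17.6 and 16.5 TPM in EPZ5676 explants (log2 fold change -2.51 ± 0.20, edgeR adjusted p = 1.26e-05). The degrading enzyme Cyp26b1 fell (log2 fold change -2.31 ± 0.35), as did Aldh1a2, the main synthetic enzyme of embryonic mesoderm and mesothelium (log2 fold change -0.999 ± 0.18). IGF genes rose in 5 of 13 and fell in 1, 46.2% in all and near the 40% of all tested genes. Igf1 was at 32.1, 29.4 and 34.02 TPM in fresh lung and 108, 85.8 and 124 TPM in EPZ5676 explants (log2 fold change 1.38 ± 0.10, edgeR adjusted p = 5.24e-06), and the binding protein gene Igfbp7 rose (log2 fold change 3.96 ± 0.43). H19, the imprinted RNA beside Igf2, was among the largest gains in level, at 2958, 2724 and 2618 TPM in fresh lung and 5975, 4656 and 5962 TPM in EPZ5676 explants (log2 fold change 1.01 ± 0.13, edgeR adjusted p = 0.000222).

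Positional and early-embryo genes fell. Of 16 tested HOX genes, which record position along the body axis, 13 fell and none rose, with a median of -1.14, against a background of 17.9% lower. Without E11.5 3 or EPZ5676 3 the count was 8. Hoxa4 was at 37.96, 42.99 and 37.3 TPM in fresh lung and 8.19, 11.99 and 5.53 TPM in EPZ5676 explants (log2 fold change -2.18 ± 0.26, edgeR adjusted p = 0.00013). Hoxa5, a HOX gene needed for lung development, was at 86.6, 71.7 and 69.02 TPM in fresh lung and 20.6, 40.1 and 23.9 TPM in EPZ5676 explants (log2 fold change -1.40 ± 0.28, edgeR adjusted p = 0.00343). Hoxb1 had the largest fall, from 1.2, 4.08 and 4.64 TPM to 0.2, 0 and 0 TPM in EPZ5676 explants (log2 fold change -5.16 ± 0.90, edgeR adjusted p = 0.00215). Groups were separate for these genes. The HOX cofactor genes Meis1 (log2 fold change -1.33 ± 0.11) and Meis2 (log2 fold change -1.29 ± 0.10) fell as well, among 5 of 9 in their list.

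In the LIN28 and heterochronic list, genes that mark early developmental time, 10 of 11 fell and none rose (median -2.10). Hmga2, a chromatin protein of early progenitors and a let-7 target, was at 294, 485 and 438 TPM in fresh lung and 48.3, 37.4 and 31.3 TPM in EPZ5676 explants (log2 fold change -3.37 ± 0.21, edgeR adjusted p = 4.57e-06). Lin28b, which blocks let-7 maturation, was at 8.94, 9.9 and 10.8 TPM in fresh lung and 0.93, 0.76 and 0.98 TPM in EPZ5676 explants (log2 fold change -3.61 ± 0.17, edgeR adjusted p = 8.09e-07). Lin28a (log2 fold change -4.80 ± 0.76), Sall4 (log2 fold change -3.25 ± 0.62) and the RNA-binding Igf2bp2 (log2 fold change -0.88 ± 0.10) fell too. The message of the drug target did not move past the threshold: Dot1l was at 23.1, 23.1 and 21.2 TPM in fresh lung and 24.7, 17.4 and 20.3 TPM in EPZ5676 explants (log2 fold change -0.03 ± 0.10, edgeR adjusted p = 0.8), with overlapping groups. Among 16 genes of DOT1L and its elongation partners, 3 rose and 2 fell (median -0.01), a share of 31.2% beside 40% of all tested genes. The message level says nothing of the enzyme's activity or of the histone mark.

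Endothelial genes fell in 24 of 27 tested and rose in none (median -2.48). Emcn, a capillary and venous sialomucin, was at 33.6, 33.96 and 24.9 TPM in fresh lung and 3.92, 0.77 and 2.47 TPM in EPZ5676 explants (log2 fold change -3.61 ± 0.54, edgeR adjusted p = 0.000753). Plvap, of the diaphragms of fenestrae, was at 17.3, 18.04 and 15.3 TPM in fresh lung and 3.62, 0.81 and 0.47 TPM in EPZ5676 explants (log2 fold change -3.33 ± 0.65, edgeR adjusted p = 0.00316). Egfl7, a secreted vessel factor, was at 74.3, 74.9 and 70.1 TPM in fresh lung and 26.2, 17.1 and 15.9 TPM in EPZ5676 explants (log2 fold change -1.80 ± 0.27, edgeR adjusted p = 0.00049). EPZ5676 1 had the highest level of the treated libraries for each of these, and still lay below all fresh ones. Sox17, an arterial factor (log2 fold change -3.21 ± 0.78), and Ramp2, a receptor partner for adrenomedullin (log2 fold change -1.59 ± 0.23), fell as well. Summed over the list, endothelial TPM was 511, 500.0 and 460.1 TPM in fresh lung and 170.2, 86.9 and 103 TPM in EPZ5676 explants.

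Red cell genes fell in 23 of 25 tested. The 1 that passed in the other direction was Tfrc, the transferrin receptor, which rose and which most dividing cells also express; it was named after its values were seen. The list's median was -5.12, or -5.04 with genes at 0 set to their bounds. Globin messages together made 1.81%, 2.5% and 2.31% of all TPM in E11.5 1, 2 and 3. They made 0.106%, 0.00751% and 0.0548% in EPZ5676 1, 2 and 3, so EPZ5676 2 held the least. Embryonic globins were 61.6% to 70.1% of globin TPM in fresh lung. Hbb-y, the embryonic epsilon-like globin, was at 7908, 10019 and 9626 TPM in fresh lung and 486, 44.5 and 296 TPM in EPZ5676 explants (log2 fold change -5.12 ± 0.99, edgeR adjusted p = 0.00731). The platelet genes Ppbp (log2 fold change -4.88 ± 0.71) and Clec1b (log2 fold change -6.01 ± 0.87) fell, among 4 of 5 in a list of 13 where the others were too low to test.

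A promoter window is shown for a pair of the red cell genes because their list had the lowest median, with the bases AGATAA, a motif of GATA factors, searched on both strands. It was found in the 300 bases around the start (250 before to 50 after) of 8 of 19 red cell genes with a RefSeq promoter (42.1%), against 12.7% of all 27025 genes. Of tested members 7 of 8 with the motif and 10 of 10 without it were called. Capitals mark the motif or its reverse complement, and a match is a description of the letters only.
Kel (chr6:41704329-41704428, GRCm38.p6, minus strand, bases 103 to 4 before the start): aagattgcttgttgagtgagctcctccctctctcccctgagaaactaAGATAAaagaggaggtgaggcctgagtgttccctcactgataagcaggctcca
Epb42 (chr2:121037028-121037127, GRCm38.p6, minus strand, bases 250 to 151 before the start): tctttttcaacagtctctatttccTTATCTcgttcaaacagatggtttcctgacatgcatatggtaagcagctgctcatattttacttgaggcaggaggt

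**Figure D3:**
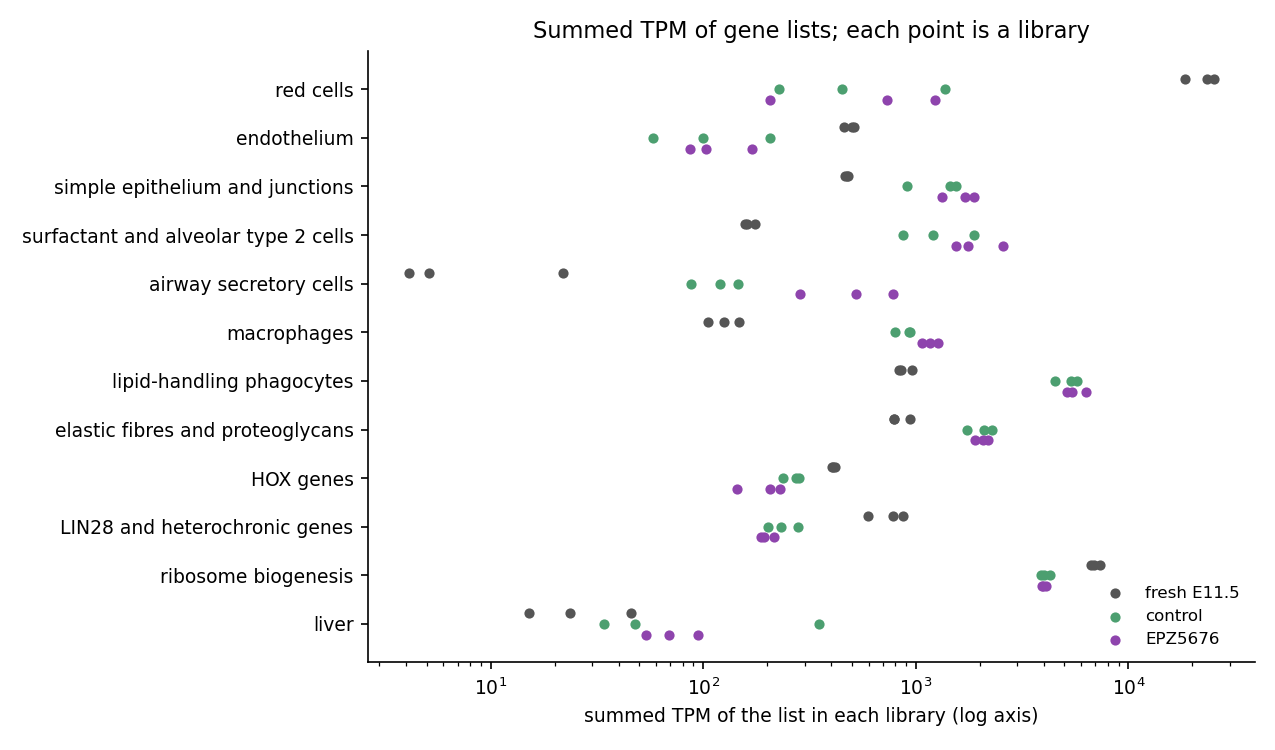
The x axis (log scale) gives TPM summed over each gene list, with a point for each of the 9 libraries, coloured by group (fresh, control or EPZ5676). Red cell and endothelial sums are lower in every cultured library than in any fresh one, and phagocyte, secretory and surfactant sums are higher there than in any fresh library.

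Macrophage genes rose in 17 of 22 tested and fell in 2 (median 2.19), and genes of lipid-handling phagocytes rose in 20 of 21 (median 3.47). Tyrobp, the adaptor of myeloid receptors, was at 7.44, 6.4 and 6.32 TPM in fresh lung and 133, 78.8 and 137 TPM in EPZ5676 explants (log2 fold change 4.16 ± 0.27, edgeR adjusted p = 3.54e-06). Cd68, a macrophage lysosomal protein, was at 4.74, 3.31 and 6.29 TPM in fresh lung and 67.5, 65.7 and 87.8 TPM in EPZ5676 explants (log2 fold change 3.99 ± 0.24, edgeR adjusted p = 2.63e-06). Lgals3, the galectin of activated phagocytes, was at 1.12, 3 and 1.02 TPM in fresh lung and 173, 188 and 166 TPM in EPZ5676 explants (log2 fold change 7.61 ± 0.43, edgeR adjusted p = 4.76e-06). All treated libraries were above all fresh ones for these genes. Macrophage TPM summed to 148, 105 and 125 TPM in fresh lung and 1161, 1074 and 1265 TPM in EPZ5676 explants.

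Lysosome genes rose in 33 of 34 tested, with a median of 1.30. The aspartic protease Ctsd was among the largest gains in level, at 97.7, 85.2 and 89.9 TPM in fresh lung and 1019, 889 and 1155 TPM in EPZ5676 explants (log2 fold change 3.50 ± 0.15, edgeR adjusted p = 3.74e-07). Ctsb, a cysteine protease, was at 107, 95.04 and 85.4 TPM in fresh lung and 595, 476 and 569 TPM in EPZ5676 explants (log2 fold change 2.60 ± 0.14, edgeR adjusted p = 1.36e-06). Ctss, a cathepsin mainly of myeloid cells, was at 9.06, 5.32 and 4.67 TPM in fresh lung and 63.1, 133 and 168 TPM in EPZ5676 explants (log2 fold change 4.27 ± 0.52, edgeR adjusted p = 0.000489), and Ctsh, found in phagocytes and in surfactant-making cells, rose (log2 fold change 4.19 ± 0.19). Ftl1, a ferritin chain that stores iron, was at 1164, 1169.8 and 1128 TPM in fresh lung and 2935, 2274 and 2613 TPM in EPZ5676 explants (log2 fold change 1.17 ± 0.12, edgeR adjusted p = 4.36e-05). Macrophage genes rose beside these lists, and their part in the lysosome result was not tested. Of 17 genes of cholesterol export and lipid droplets 12 rose and 1 fell, 76.5% in all beside 40% of all tested genes. Among the rises were the droplet coat gene Plin2 (log2 fold change 1.90 ± 0.25) and the sterol exporter Abcg1 (log2 fold change 1.89 ± 0.27). Genes of cholesterol synthesis and uptake did not stand out: 9 of 25 rose and 1 fell, 40% in all (median 0.34).

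Cell cycle genes fell modestly. Of 38 tested S-phase entry and replication genes (the G1/S list), 23 fell and 1 rose (median -0.44). Of 36 genes of G2/M and mitosis, 20 fell and none rose (median -0.37), or 13 without E11.5 3. Rrm2, a ribonucleotide reductase subunit, was at 166, 198 and 213 TPM in fresh lung and 81.4, 60.6 and 80.3 TPM in EPZ5676 explants (log2 fold change -1.26 ± 0.12, edgeR adjusted p = 3.48e-05). Tyms, which makes thymidylate, was at 186, 205 and 232 TPM in fresh lung and 144, 139 and 132 TPM in EPZ5676 explants (log2 fold change -0.53 ± 0.10, edgeR adjusted p = 0.00193). Bub1, a spindle checkpoint kinase, was at 90.8, 101 and 105 TPM in fresh lung and 58.5, 66.04 and 60.7 TPM in EPZ5676 explants (log2 fold change -0.59 ± 0.13, edgeR adjusted p = 0.00545). The medians of both lists lay closer to 0 than those of the HOX and LIN28 lists. Mki67, the proliferation marker, was at 141, 156 and 156 TPM in fresh lung and 116, 118 and 123 TPM in EPZ5676 explants and lay close to the threshold (log2 fold change -0.34 ± 0.12, edgeR adjusted p = 0.0462). With any 1 of the 6 libraries left out its adjusted p (edgeR) was 0.0509 to 0.147, and it did not pass.

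Genes that restrain the cycle or respond to p53 rose in 18 of 23 tested, with a median of 1.33. Cdkn1a, the p21 inhibitor, was at 2.62, 4.45 and 3.58 TPM in fresh lung and 30.1, 45.8 and 39.8 TPM in EPZ5676 explants (log2 fold change 3.40 ± 0.29, edgeR adjusted p = 2.22e-05). The cyclin Ccng1, a p53 target, was at 29.5, 22.9 and 26.4 TPM in fresh lung and 56.99, 108 and 71.8 TPM in EPZ5676 explants (log2 fold change 1.61 ± 0.35, edgeR adjusted p = 0.00716). The pro-apoptotic Bax (log2 fold change 0.96 ± 0.15), the death receptor genes Fas (log2 fold change 2.81 ± 0.55) and Eda2r (log2 fold change 3.04 ± 0.48) rose too. Gdf15, a stress-induced cytokine, was at 0 in all fresh libraries and at 1.56, 3.5 and 2.32 TPM in EPZ5676 explants, at least 13-fold higher.

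The CHR element TTTGAA of mitotic genes was present, on either strand, in the same 300-base window of 21 of 28 genes of the G2/M list with a RefSeq promoter (75%), against 20.2% of all genes. An E2F motif (TTTCGCGC, TTTGGCGC, TTTCCCGC or TTTGCCGC) was present in 13 of 32 of the G1/S list (40.6%), against 2.6%. Called genes made 10 of 21 tested G2/M members with the element and 4 of 7 without it, and 9 of 13 and 10 of 19 for E2F. Mki67 is shown because it holds the CHR element more than once in this window, with capitals marking it.
Mki67 (chr7:135716425-135716524, GRCm38.p6, minus strand, bases 145 to 46 before the start): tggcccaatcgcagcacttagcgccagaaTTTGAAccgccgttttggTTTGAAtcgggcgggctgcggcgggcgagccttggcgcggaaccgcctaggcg

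Genes induced by ATF4, the factor of the amino acid response, rose in 16 of 26 tested and fell in none (median 1.07). Nupr1, a small stress-induced chromatin protein, was at 1.17, 0 and 0.69 TPM in fresh lung and 42.2, 67.3 and 83.8 TPM in EPZ5676 explants (log2 fold change 6.98 ± 0.56, edgeR adjusted p = 1.69e-05). Chac1, which degrades glutathione, was at 0, 0 and 0.16 TPM in fresh lung and 9.49, 7.21 and 6.82 TPM in EPZ5676 explants (log2 fold change 6.81 ± 1.11, edgeR adjusted p = 0.0011). Atf4 itself was at 122, 109 and 115 TPM in fresh lung and 191, 154 and 184 TPM in EPZ5676 explants (log2 fold change 0.62 ± 0.11, edgeR adjusted p = 0.00129), a smaller rise. The serine synthesis enzyme Psat1 (log2 fold change 1.32 ± 0.14) and the arginine carrier Slc7a3 (log2 fold change 3.60 ± 0.37) rose. The composite ATF4 motif TGATGNAA was present in 9 of 24 of these genes with a RefSeq promoter (37.5%), against 4.51% of all genes, and 7 of 8 tested genes with it and 7 of 15 without it were called. It is shown for the pair of genes with the largest rises, in capitals and as its reverse complement.
Nupr1 (chr7:126625527-126625626, GRCm38.p6, minus strand, bases 156 to 57 before the start): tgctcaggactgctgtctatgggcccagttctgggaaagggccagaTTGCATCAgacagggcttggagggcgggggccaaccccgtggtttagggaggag
Chac1 (chr2:119351003-119351102, GRCm38.p6, plus strand, bases 239 to 140 before the start): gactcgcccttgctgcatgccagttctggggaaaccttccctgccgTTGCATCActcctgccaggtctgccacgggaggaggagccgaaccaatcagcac

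Genes for making ribosomes fell in 22 of 25 tested and rose in none (median -0.57), while those for the ribosome's own proteins did not. Of the latter 11 of 37 rose, or 29.7%, beside 22.1% higher of all tested genes. With 1 library left out that count ranged from 1 to 7. It was 3, 1 and 2 without E11.5 1, 2 and 3, and 7, 3 and 6 without EPZ5676 1, 2 and 3. Ncl, the nucleolar protein nucleolin, was at 890.2, 1009.8 and 962 TPM in fresh lung and 499.7, 453 and 447 TPM in EPZ5676 explants (log2 fold change -1 ± 0.10, edgeR adjusted p = 3.99e-05). Npm1, the nucleolar histone chaperone, was at 3012, 3394 and 2995 TPM in fresh lung and 1639, 1733 and 1638 TPM in EPZ5676 explants (log2 fold change -0.84 ± 0.16, edgeR adjusted p = 0.00197). Rps19, a small subunit protein, was at 1244, 1073 and 1131 TPM in fresh lung and 1997, 2333 and 1776 TPM in EPZ5676 explants (log2 fold change 0.83 ± 0.20, edgeR adjusted p = 0.00752). Ncl and Npm1 were lower and Rps19 was higher in every treated library than in any fresh one. Glycolysis genes fell in 10 of 32 and rose in 6, a called share of 50% beside 40% of all tested genes. The rises numbered 3 without any 1 fresh library or without EPZ5676 2. The enolase Eno1 was at 228, 280.0 and 270.4 TPM in fresh lung and 105, 111 and 98.9 TPM in EPZ5676 explants (log2 fold change -1.29 ± 0.11, edgeR adjusted p = 2.26e-05). Pkm, the pyruvate kinase gene, fell (log2 fold change -1.005 ± 0.11), and Ldha, for lactate dehydrogenase, fell as well (log2 fold change -0.66 ± 0.13). The paralog Eno2 rose (log2 fold change 1.55 ± 0.21). The growth factor Mdk, midkine, was among the largest losses in level, at 1293, 1336 and 1317 TPM in fresh lung and 589, 404 and 464 TPM in EPZ5676 explants (log2 fold change -1.46 ± 0.10, edgeR adjusted p = 5.54e-06).

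A few genes moved against their list, and these are named because of that, after their values were seen. The forkhead repressor Foxp1 fell among endoderm factors (log2 fold change -1.26 ± 0.12), and the latent TGF beta binding gene Ltbp1 (-0.97 ± 0.13) and the crosslinking oxidase Loxl2 (-0.83 ± 0.12) fell among genes of elastic fibres. Of macrophage genes, the chemokine receptor Cx3cr1 fell (-1.12 ± 0.40), as did Pf4, which platelets also make (-2.06 ± 0.53). In the G1/S list thymidine kinase Tk1 rose (0.37 ± 0.13). The calls of Tk1 and Cx3cr1 lay near the threshold. That of Tk1 was lost with any 1 of the 6 libraries left out (edgeR adjusted p = 0.055 to 0.153), while its log2 fold change stayed between 0.324 and 0.416. That of Cx3cr1 was lost with any but E11.5 3 left out (edgeR adjusted p = 0.0688 to 0.216), with log2 fold changes from -1.36 to -0.689 over the 6 fits.

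**Figure D4:**
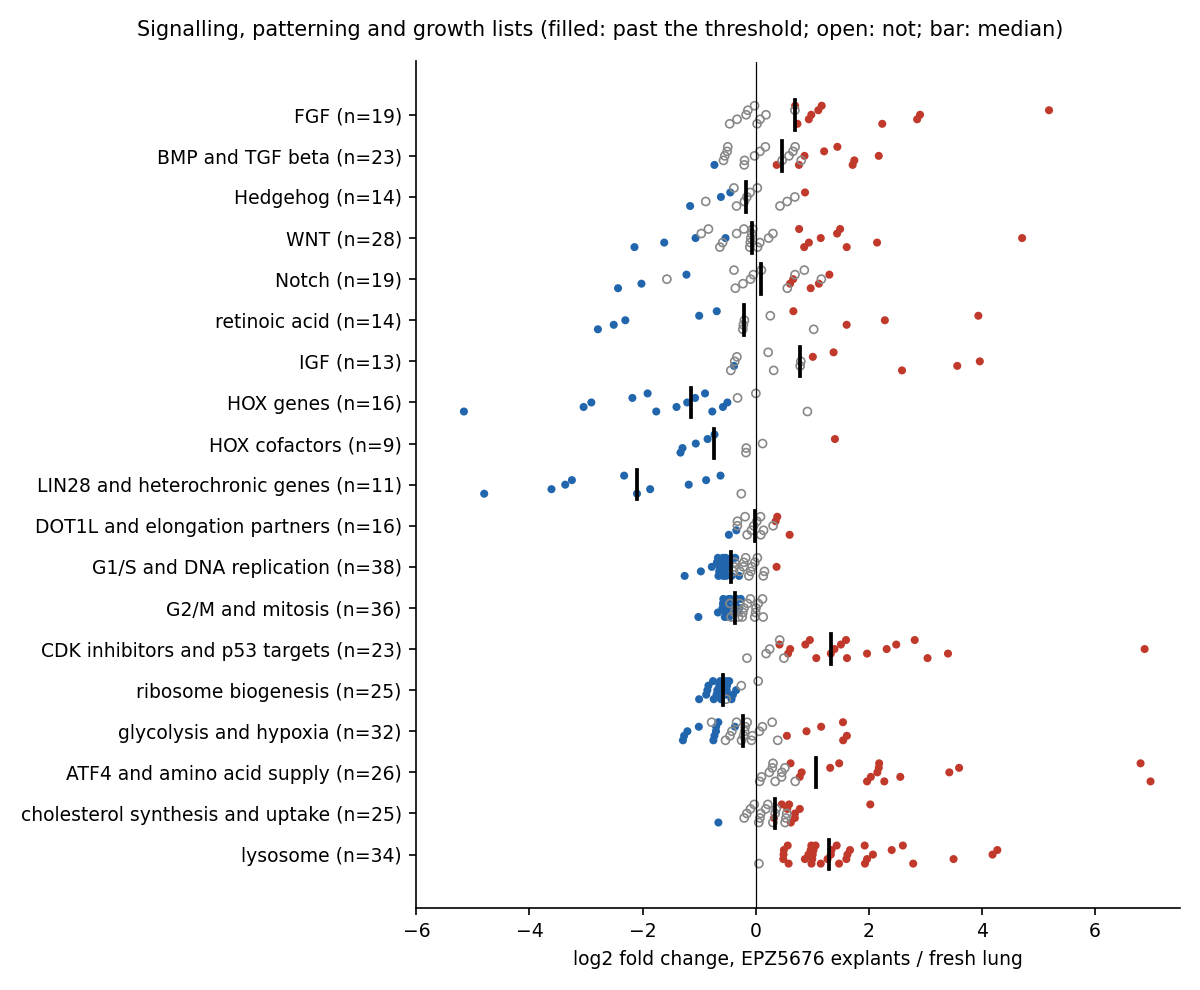
Each point is a tested gene of a signalling, patterning or growth list, placed by its log2 fold change of EPZ5676 explants over fresh lung; filled points passed the threshold, open points did not, and black bars are medians. HOX (median -1.14) and LIN28 (median -2.10) genes lie to the left of 0 and lysosome (median 1.30) and p53 target (median 1.33) genes to the right.

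Control explants show where the same genes lay after 72 h without the inhibitor. Gpnmb was at 612, 397 and 433 TPM in control explants, Epcam at 217, 212 and 132 TPM and Hmga2 at 66.9, 46.5 and 41.6 TPM. The 4 genes that follow were chosen after their values were seen, as lying further from fresh lung in EPZ5676 explants than in controls. Foxj1 was at 1.79, 1.95 and 0.33 TPM in controls, below every EPZ5676 library listed above, with a log2 difference between EPZ5676 and control explants of 3.90 ± 0.67, edgeR adjusted p = 0.179. Scgb3a2 was at 23.3, 58.97 and 47.4 TPM in controls (3.04 ± 0.53, edgeR adjusted p = 0.197). Sec14l3, listed with alveolar type 1 genes, was at 0.34, 0.54 and 0 TPM in controls and at 5.45, 1.93 and 15.9 TPM in EPZ5676 explants (4.84 ± 0.94, edgeR adjusted p = 0.199). Hoxa4 was at 20.2, 12.5 and 16.5 TPM in controls (-0.96 ± 0.26, edgeR adjusted p = 0.393).

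Those differences did not pass. Between EPZ5676 and control explants edgeR called 0 of 15158 genes (0%), with 1052 at an unadjusted p under 0.05 and a lowest adjusted p of 0.131, and DESeq2 called 83. Multiciliated genes were called higher than fresh lung in 15 of 19 in EPZ5676 explants (median 3.01) and in 5 of 19 in controls (median 0.66), with 1 lower there. HOX genes were called lower in 13 of 16 in EPZ5676 explants (median -1.14) and 7 of 16 in controls (median -0.43). These counts share the fresh libraries, and a passed test in the one and not in the other does not show a difference. Members low in fresh lung and in controls could be tested only through EPZ5676 explants. The endothelial, lysosome and ribosome biogenesis lists had 24, 33 and 22 calls in EPZ5676 explants and 23, 34 and 20 in the same directions in controls.

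**Figure D5:**
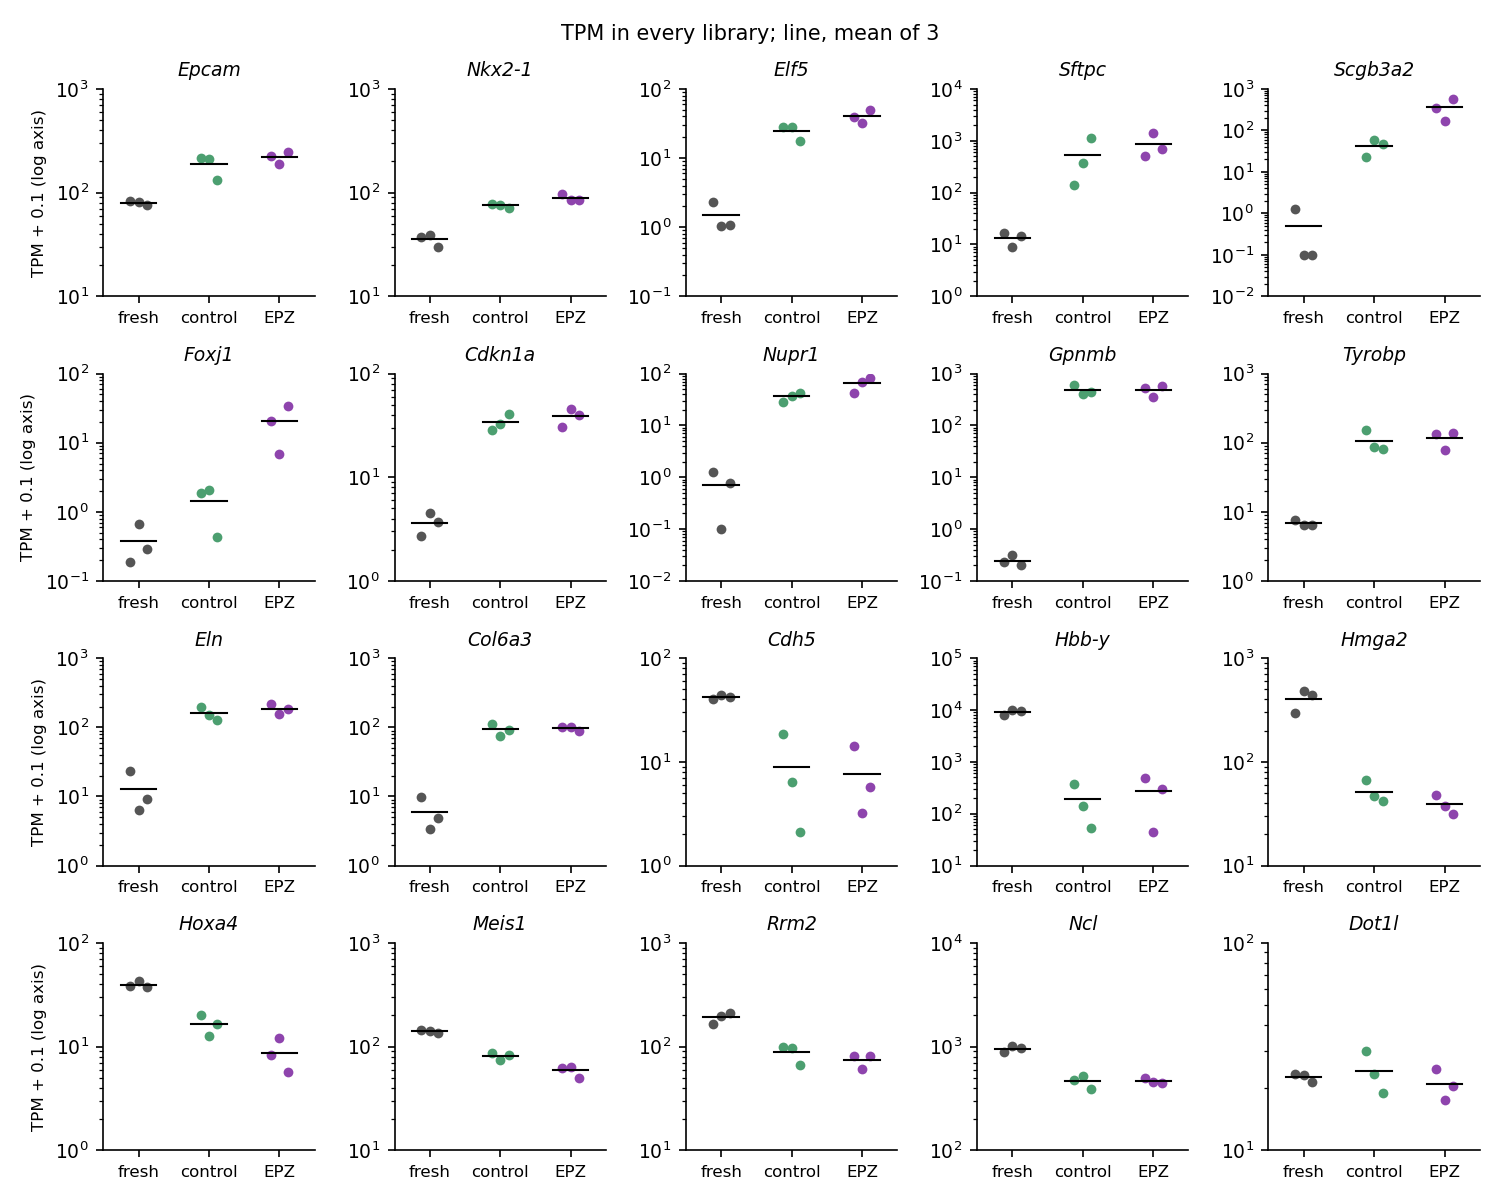
TPM + 0.1 on a log axis for 20 genes in each of the 9 libraries, with fresh lung, control explants and EPZ5676 explants side by side and a line at each group's mean. Cultured groups lie together and apart from fresh lung for Gpnmb, Eln and Ncl; Foxj1 and Scgb3a2 are highest in EPZ5676 explants, and Dot1l overlaps in all groups.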

How the data were processed

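Total RNA from 9 mouse lung samples was sequenced; per the labels' protocols it was extracted with TRIzol and 1 ug entered a Vazyme VAHTS Universal V8 library kit. Expected counts, estimated per gene and not always whole, and TPM were deposited by the authors as separate tables. RSEM, Bowtie2 and mm10 appear in the submitters' processing notes, without versions or roles. Whether counting used strand is not stated there, so reads of a gene and of its antisense or overlapping neighbour are not separable, and near-identical genes (globins, ribosomal protein genes and pseudogenes) share reads by estimate.

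Expected counts were rounded to whole numbers, filtered with filterByExpr (minimum count 10, leaving 15158 of 55286 genes), scaled by TMM and fitted by group over all 9 libraries in edgeR 4.0.16 (R 4.3.3), with 6 residual degrees of freedom. The robust quasi-likelihood F test, two-sided, was adjusted by Benjamini-Hochberg over all tested genes with a threshold of 0.05. Values after ± are SE of log2 fold changes, derived from F, with n = 3 in each group. Fold changes come from counts and levels from TPM, so they need not match exactly. The script was tested on simulated data. Floors cover counting error only, whereas the SE also hold the spread between libraries.

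The members, 53 gene lists (1042 genes, 901 tested) and the naming rule were chosen with earlier results of these data known. The filter drops genes low in every group, so a gene near 0 in fresh lung was tested only if high elsewhere. The rule took the 10 largest rises and falls (groups not overlapping, at least 5 TPM on average in the higher one), the 10 largest gains and losses of TPM, 13 anchor genes and, from each list, up to 4 called genes of largest change and up to 2 of highest level. A selection of these is given, some genes that the rule names are not reported here, and genes outside it are said to be so. Gene positions come from GENCODE M21 (GRCm38, the assembly of mm10), which matched 100% of identifiers, and promoters from RefSeq (GRCm38.p6). No replicate pair was a duplicate: chi-square over degrees of freedom was 2.69 to 31.1, above sampling noise. Alternatives tried were upper-quartile and RLE scaling, DESeq2 1.42.0, limma 3.58.1 on log2 TPM, other filters, a 6-library fit, a 2-fold limit, a replicate block and each library left out.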

Additional observations from a re-analysis of the deposited data

How the results depend on the processing

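The counts of 3350 higher and 2712 lower genes became 899 and 221 when a change beyond 2-fold was asked of each gene (glmTreat). Under the other scalings, filters, tools and fits they ranged from 2508 to 3641 and from 2106 to 3296, and with each of the 6 libraries left out in turn from 2477 to 3064 and from 1893 to 2414. Correlations of deviations between fresh and EPZ5676 libraries of the same number were -0.102, -0.088 and 0.0196 for numbers 1 to 3. With so few libraries this cannot exclude pairing, and control against EPZ5676 explants was not checked in this way. With the replicate block the counts were 3295 and 2732. Of the called genes, 7 higher and 1 lower changed sign in limma on log2(TPM + 1) and likewise with a pseudocount of 0.1, and none under the other alternatives. Between EPZ5676 and control explants edgeR called 0 genes, DESeq2 83, edgeR without a filter 76 and with the replicate block 1. Leaving out 1 library gave 0 to 26, with 26 without EPZ5676 2, 1 without EPZ5676 3 and 1 without Control 2, the control libraries being left out as an alternative chosen after seeing the data.

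Some genes had a result under fewer than the 17 alternatives, such as Gdf15 (15), Fas (16) and Hoxb1 (16). Of 140 genes described with a value that passed, 134 did so under each alternative that gave them a result, the 2-fold limit aside. Under that limit 41 were lost. The exceptions were Cyp2f2 (adjusted p = 0.0803 without a filter), Mki67 (0.0702 and 0.0715 in limma), Pf4 (0.181 in limma with a pseudocount of 0.1), Cx3cr1 (0.0807 and 0.138 in limma), Oasl2 (0.0725 with the replicate block, 0.136 and 0.186 in limma) and Tk1 (0.0571 with RLE scaling, 0.0637 in DESeq2, 0.0559 with the replicate block). Genes that did not pass in edgeR did so elsewhere: Fgf10 (adjusted p = 0.0499) and Shh (0.0435) in DESeq2, Bmp4 (0.0146 and 0.0152) in limma and Sox2 in the 6-library fit. Etv5 and Dot1l changed sign with 1 library left out, ranging from -0.148 to 0.0915 and from -0.116 to 0.036; the cause was not tested. Counts of listed genes moved by over 1.5 times for platelet genes (4 lower, 9 without a filter, 2 in limma with a pseudocount of 0.1), mesenchymal factors (5 higher, 3 in limma), ribosomal proteins (11 higher, 20 in the 6-library fit) and cholesterol synthesis (9 higher, 3 in limma, and 1 to 14 with a library left out). At depths of 6598387 to 8235720 counts, genes of rare cell types were often too low to test.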

Other observations

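Of 32 listed interferon-stimulated genes 19 could be tested, and 14 of these rose and 1 fell (median 1.67), beside 22.1% higher of all tested genes. The others were too low in every group, among them the widely used markers Isg15, Ifit1, Ifit3, Irf7, Mx1, Oas1a and Rsad2. The rises numbered 8 when at least 50 counts were asked of 3 libraries. The fall was Oasl2 (log2 fold change -1.55 ± 0.56), named after its values were seen. Its call was lost with any 1 of the 6 libraries but EPZ5676 2 left out, at an edgeR adjusted p of 0.0854 to 0.149. The membrane protein gene Ifitm3 was at 20.9, 19.1 and 23.8 TPM in fresh lung and 66.03, 117 and 82.6 TPM in EPZ5676 explants (log2 fold change 2.05 ± 0.39, edgeR adjusted p = 0.00269). B2m, the light chain of class I antigen-presenting molecules, was at 90.6, 77.96 and 69.7 TPM in fresh lung and 191, 265 and 246 TPM in EPZ5676 explants (log2 fold change 1.56 ± 0.29, edgeR adjusted p = 0.00273). The RNA sensor Ddx58 rose as well (log2 fold change 2.19 ± 0.27). Genes of matrix breakdown and its inhibitors rose in 13 of 19 and fell in 1, the plasminogen activator Plat (log2 fold change -1.82 ± 0.20), named after its values were seen (median 0.73). The urokinase gene Plau was at 6.33, 4.1 and 4.05 TPM in fresh lung and 22.9, 22 and 21.7 TPM in EPZ5676 explants (log2 fold change 2.21 ± 0.24, edgeR adjusted p = 6.73e-05), and the macrophage elastase gene Mmp12 rose (log2 fold change 4.07 ± 0.67).

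Immediate early and heat shock genes, in a shared list, rose in 11 of 25 and fell in 4, 60% in all beside 40% of all tested genes. The falls numbered 2 without E11.5 2, E11.5 3, EPZ5676 1 or EPZ5676 2. The growth-response factor Egr1 was at 5.28, 3.44 and 3.4 TPM in fresh lung and 62.3, 25.4 and 51.03 TPM in EPZ5676 explants (log2 fold change 3.54 ± 0.38, edgeR adjusted p = 0.000157). The chaperonin Hspd1 of mitochondria was at 553, 659 and 661 TPM in fresh lung and 329, 387 and 356 TPM in EPZ5676 explants (log2 fold change -0.82 ± 0.14, edgeR adjusted p = 0.000941). Chaperone genes of the endoplasmic reticulum rose in 3 of 19 and fell in none (median 0.13). Their called share of 15.8% was below the 40% of all tested genes.

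Among genes of neighbouring tissues, the neural crest factor Sox10 was at 7.33, 8.5 and 5.23 TPM in fresh lung and 0.3, 0.65 and 0.43 TPM in EPZ5676 explants (log2 fold change -3.76 ± 0.52, edgeR adjusted p = 0.000304). Prph, an intermediate filament gene of peripheral neurons, was at 0.43, 0.88 and 0 TPM in fresh lung and 12.6, 14.01 and 8.43 TPM in EPZ5676 explants (log2 fold change 4.72 ± 0.97, edgeR adjusted p = 0.00517). In the list of crest, glia and neuron genes 5 of 18 were higher and 3 lower, 44.4% in all and near the 40% of all tested genes, where the rises numbered 2 without E11.5 2 and 3 without E11.5 3 or EPZ5676 3. Of 12 listed oesophagus and stomach genes only 4 could be tested, the others being too low in every group. Of these 2 fell and 1 rose, so the list had no single direction. The falls were the foregut factors Nkx6-1 (log2 fold change -3.39 ± 0.40) and Gata4 (log2 fold change -2.42 ± 0.36). The keratin Krt4, with 0 counts in fresh lung, lay higher in EPZ5676 explants and is named after its values were seen. Kit, the stem cell factor receptor of mast and other cells, fell too (log2 fold change -1.32 ± 0.28).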
